A study of Homo sapiens with 2 samples.

Results

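The genes described here are the CD surface antigens, the molecules by which clinical laboratories assign leukocytes and leukaemias to a lineage, read as an immunophenotype at the level of mRNA. Members were the protein-coding genes of GENCODE 29 named CD followed by a digit, together with PTPRC, FUT4, ANPEP, MME, NKG7, SPN, FCGR1A and FCGR2A, and without the CD1 and CD300 families, CD36, CD63, CD68 and CD74. Of 82 such genes, 40 had a value in at least 1 library, out of 16145 genes in all, and the other 42 were not analysed here. The 40 comprised 5 B cell antigens, 7 of T and NK cells, 9 myeloid antigens, 17 of general distribution, and 2 that carry a CD name without being surface antigens.

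There were 2 libraries, both of HAL-01, which the labels describe as a human line of pre-B acute lymphoblastic leukaemia. The library labelled AG came from a culture kept for 24 h with 1,5-AG at 0.8 mM (1,5-anhydroglucitol, which resembles glucose), and the library labelled Control served as its reference, with a treatment not given in the sources used here. Each group has 1 library, so there is no replicate error and no test of any difference. Levels are FPKM, that is fragments divided by the length of the gene and the size of the library, and the fragment totals recovered from them were 14857372 in AG and 16240451 in Control. Intervals in brackets are 95% counting intervals, which cover counting error only and not the spread between cultures. A gene without a value in a library was not read as 0. In a bulk library, fewer cells of a type and less RNA per cell cannot be told apart.

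CD antigens are receptors, adhesion molecules, enzymes and tetraspanins of the cell surface. B cell precursors are recognised by CD22, CD79A and usually CD24 and MME, the common acute lymphoblastic leukaemia antigen, while CD33, ANPEP (CD13) and the carbohydrate CD15, which the enzyme FUT4 can synthesise, mark granulocytes and monocytes. CD4 marks helper T cells and is also carried by human monocytes.

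The 5 B cell antigens were low in each library that listed them. CD180, a Toll-like receptor relative of B cells that monocytes also carry, had 1.28 FPKM in AG (1.05 to 1.55) and 0.717 in Control (0.555 to 0.912). It had the highest level of the B cell antigens that each library listed, and 40.7% of listed genes in AG and 47.7% in Control were at or above it. CD79A, a signalling chain of the antigen receptor of B cells, had 0.351 FPKM in AG and 0.275 in Control, from 7 fragments in AG and 6 in Control. CD24, a small glycosylated antigen of B cell precursors and granulocytes, had 0.391 FPKM in AG and 0.0796 in Control, from 18 fragments in AG and 4 in Control, and is uncertain because it has processed pseudogenes. CD22, an inhibitory lectin of B cells, was listed in AG only, at 0.0437 FPKM from 4 fragments, and MME in Control only, at 0.00624 FPKM from 1 fragment. Each library listed 4 of these genes, and their FPKM summed to 2.07 in AG and 1.08 in Control.

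The myeloid antigens reached far higher levels. ANPEP, the membrane aminopeptidase CD13, had 63.3 FPKM in AG (61.5 to 65.2) and 67.5 in Control (65.7 to 69.3), and 1.89% of listed genes in AG and 1.78% in Control were at or above it. FUT4, the fucosyltransferase, had 38.8 FPKM in AG (37.5 to 40.1) and 41.7 in Control (40.4 to 43.0). CD33, an inhibitory lectin of myeloid cells and a drug target in acute myeloid leukaemia, had 15.9 FPKM in AG (15.1 to 16.8) and 12.9 in Control (12.2 to 13.6). These 3 antigens thus lay above each B cell antigen that the same library listed, and none of their intervals overlapped those of CD180. FUT4 mRNA is not the CD15 epitope itself, and 11.3% of its exon bases are shared with PIWIL4 on the same strand. CD302, a C-type lectin, had 4.03 FPKM in AG and 4.17 in Control, and is uncertain because 58.8% of its exon bases lie opposite MARCH7 and 15.5% are shared with the readthrough gene LY75-CD302.

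The other myeloid antigens were below 1 FPKM. CD200R1, the receptor of the inhibitory ligand CD200, had 0.450 FPKM in AG and 0.665 in Control, and CD101, an immunoglobulin-family protein, had 0.448 in AG and 0.284 in Control. CD163, the haemoglobin scavenger receptor of macrophages, was listed in AG only at 0.0463 FPKM, as was its relative CD163L1 at 0.821. CD200R1L was listed in Control only, at 0.108 FPKM. The summed level of the myeloid antigens listed was 124 FPKM over 8 genes in AG and 127 over 7 in Control. In each library the listed markers of B cell precursors were low, and the myeloid antigens ANPEP, FUT4 and CD33 were high. Whether the cells match the label of a pre-B line was not tested, and they are called by their label. The B cell antigens CD79B, CD72 and CD40 were not analysed here, nor were the myeloid antigens CD14, CD93, FCGR1A and FCGR2A. Their levels are therefore not described.

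The sequences before and at the start of CD33 and CD79A are shown because these 2 genes of chromosome 19 carry the contrast between a myeloid and a B cell antigen. They are RefSeq promoter windows of GRCh38.p14, from 250 bases before to 50 bases after the gene start, written 5′ to 3′ along the gene, and both genes lie on the plus strand, CD33 at chr19:51224830-51225129 and CD79A at chr19:41877029-41877328. Capitals mark matches on either strand to GAGGAA, the core recognised by the myeloid and B cell factor PU.1, to AACGG, a core of MYB sites, to CAGGTG, an E-box of the E proteins, and to GGGCGG, the GC box.
CD33: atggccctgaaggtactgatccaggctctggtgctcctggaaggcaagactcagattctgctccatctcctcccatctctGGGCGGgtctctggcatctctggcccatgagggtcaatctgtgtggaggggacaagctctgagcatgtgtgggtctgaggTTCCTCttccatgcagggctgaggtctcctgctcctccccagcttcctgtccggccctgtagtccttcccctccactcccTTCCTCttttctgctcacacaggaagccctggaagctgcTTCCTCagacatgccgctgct
CD79A: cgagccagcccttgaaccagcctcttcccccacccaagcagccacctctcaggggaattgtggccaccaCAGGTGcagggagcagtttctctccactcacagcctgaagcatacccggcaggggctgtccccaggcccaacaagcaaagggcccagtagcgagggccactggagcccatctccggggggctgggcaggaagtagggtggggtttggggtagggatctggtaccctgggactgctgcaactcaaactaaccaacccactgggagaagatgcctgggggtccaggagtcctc
The CD33 window held 3 matches to GAGGAA, all on the strand opposite to the gene, and 1 to GGGCGG. The CD79A window held 1 match to CAGGTG and 0 to GAGGAA. No matches overlapped each other. Among 35114 promoter windows, 27.9% held GAGGAA, 19.7% AACGG, 20.6% CAGGTG and 45.0% GGGCGG. Among 44 windows of the 32 members that had one, the numbers with each were 14, 9, 5 and 22. A match is a run of letters and not a shown binding site.

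**Figure D1:**
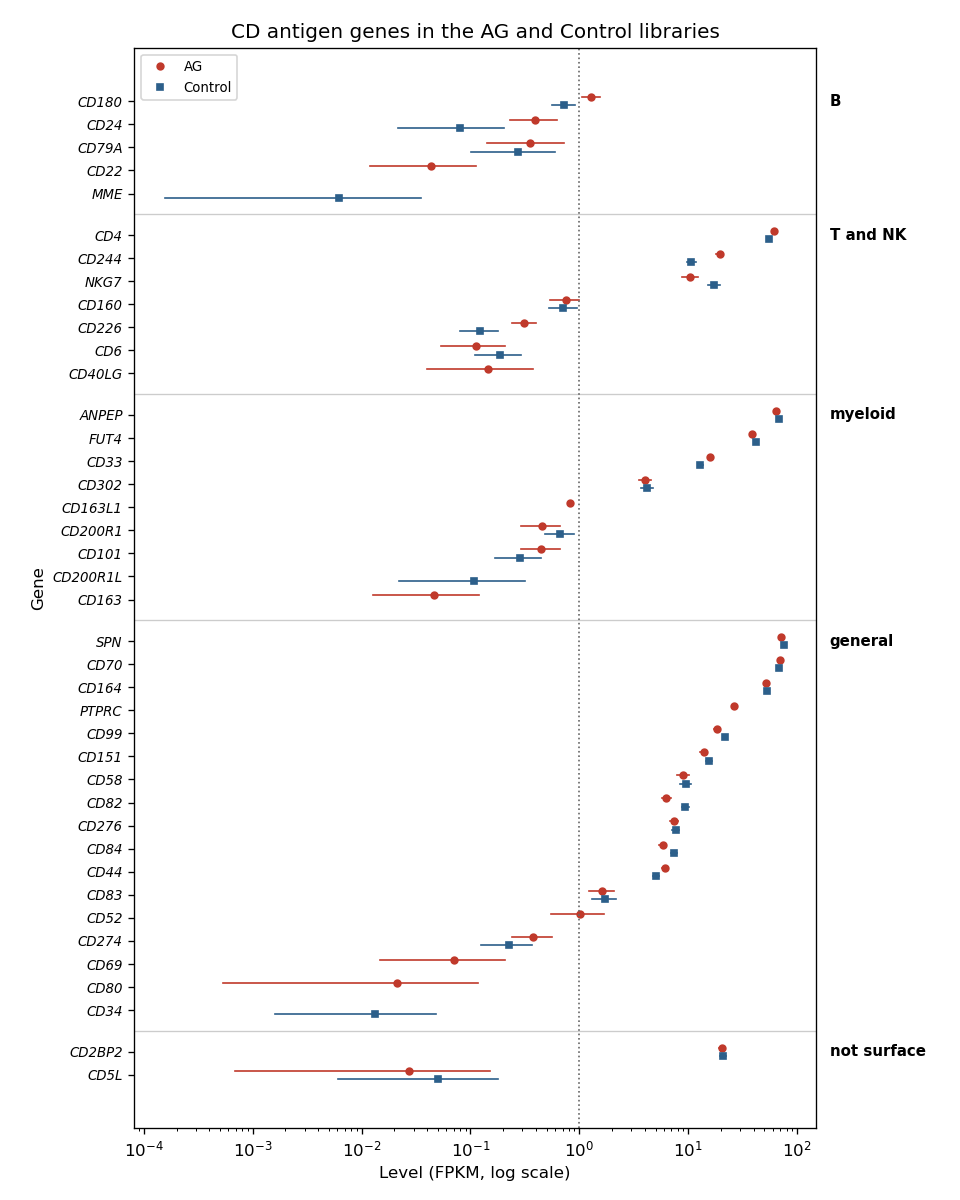
FPKM on a log axis of the 40 genes in the AG library (circles) and the Control library (squares), by antigen group, with 95% counting intervals where fragments were recovered and a dotted line at 1 FPKM. The B cell antigens lie at or below 1.28 FPKM, whereas ANPEP, FUT4, CD4, SPN and CD70 lie above 38 FPKM in both libraries. Other myeloid antigens, such as CD200R1, CD101 and CD163L1, and T and NK cell antigens such as CD6 and CD226 lie below 1 FPKM where listed.

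Antigens of T and NK cells comprised 3 genes with high levels and 4 with low ones. CD4, the co-receptor for MHC class II, had 61.2 FPKM in AG (59.3 to 63.1) and 54.9 in Control (53.2 to 56.6). CD244, a SLAM-family receptor of NK cells and monocytes, had 19.4 in AG and 10.7 in Control. NKG7, a granule membrane protein of cytotoxic cells, had 10.3 in AG and 17.2 in Control. The remaining 4 were below 1 FPKM in each library that listed them. CD160, a receptor of cytotoxic cells, had 0.746 FPKM in AG and 0.713 in Control, and CD226, an activating adhesion receptor, had 0.310 in AG and 0.122 in Control. CD6, an adhesion receptor of T cells, had 0.113 in AG and 0.186 in Control, and CD40LG, the T cell ligand of CD40, was listed in AG only at 0.145. The chains of CD3, and CD2, CD5, CD7 and CD8A, were not analysed here, so the presence of T cell antigens beyond these 7 is not described.

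Among antigens of general distribution, the sialomucin SPN (CD43), which coats most leukocytes, had the highest level in both libraries, with 70.8 FPKM in AG (69.2 to 72.4) and 75.6 in Control (74.1 to 77.2). CD70, the ligand of CD27, had 69.9 in AG (66.5 to 73.4) and 67.9 in Control (64.7 to 71.2). In AG the intervals of SPN and CD70 overlapped, and in Control they did not. CD164, an adhesive sialomucin of progenitors and many other cells, followed with 52.0 FPKM in AG and 52.7 in Control. PTPRC, the leukocyte phosphatase CD45, was listed in AG only, at 26.0 FPKM, and its level in Control was not analysed here.

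Other general antigens had intermediate levels, and none was past 1.5-fold. CD99, an adhesion protein that is abundant on precursor lymphoblasts and myeloid blasts, had 18.2 FPKM in AG and 21.8 in Control. The tetraspanin CD151 had 13.8 in AG and 15.4 in Control, and CD82, another tetraspanin, had 6.30 in AG and 9.39 in Control. CD58, the ligand of CD2, had 9.02 in AG and 9.46 in Control, and CD276, an immune checkpoint ligand, had 7.37 in AG and 7.64 in Control. These 5 genes all had the lower value in AG, but they are only part of the general antigens. Of the 11 general antigens averaging at least 1 FPKM over AG and Control, 9 were lower in AG. The other 2, CD70 and CD44, were higher. Among all 5528 genes taken by the same rule, 3142 were lower in AG and 2386 higher, so a lower value was common. The counting intervals of CD151, CD58 and CD276 overlapped between the libraries, while those of CD99 and CD82 did not. CD84, a SLAM-family receptor, had 5.82 in AG and 7.42 in Control, and CD44, the hyaluronan receptor, had 6.10 in AG and 5.07 in Control. CD83, a marker of mature dendritic cells, had 1.61 in AG and 1.70 in Control.

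The low general antigens included the stem cell marker CD34, which was listed in Control only at 0.0134 FPKM, from 2 fragments. CD274, the checkpoint ligand PD-L1, had 0.377 FPKM in AG and 0.225 in Control. CD52, a glycolipid-anchored lymphocyte and monocyte antigen, was listed in AG only at 1.01, as were the activation antigen CD69 at 0.0713 and the co-stimulatory ligand CD80 at 0.0209. Of the 2 genes with a CD name that are not surface antigens, CD2BP2, a splicing protein, had 20.2 in AG and 20.9 in Control, and CD5L, a secreted macrophage protein, had 0.0273 in AG and 0.0499 in Control.

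Counted over all members, 22 of the 37 listed in AG and 19 of the 32 listed in Control were at 1 FPKM or more, against 43.8% of the 13351 genes listed in AG and 43.3% of the 13342 in Control. Among listed protein-coding genes, which all members are, the shares were 64.5% in AG and 64.1% in Control, beside 59.5% of members in AG and 59.4% in Control, so the count over all members was near that background. Counts by antigen group rest on 4 to 16 listed genes each and are description only. At 1 FPKM or more were 1 of 4 B cell antigens in AG and 0 of 4 in Control, and 3 of 7 T and NK cell antigens in AG and 3 of 6 in Control. Of the myeloid antigens 4 of 8 in AG and 4 of 7 in Control reached this level, and of the general antigens 13 of 16 in AG and 11 of 13 in Control. At 10 FPKM or more were 0 B cell antigens in either library, 3 of T and NK cells and 3 myeloid antigens in each, and 6 general antigens in AG and 5 in Control, where the background was 15.3% of listed genes in AG and 15.1% in Control, and 27.4% of protein-coding ones in AG and 27.1% in Control.

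Ranked by level, the leading 6 members were SPN, CD70, ANPEP, CD4, CD164 and FUT4 in both libraries. PTPRC, listed in AG only, stood at rank 7 there. Among the 19 members that both libraries list with a mean of 1 FPKM or more, CD244 was at rank 8 in AG and rank 12 in Control, NKG7 at rank 12 in AG and rank 9 in Control, and CD99 at rank 9 in AG and rank 7 in Control. CD2BP2, CD33, CD151, CD276, CD82, CD44 and CD84 each differed by 1 rank, and the other members of the 19 kept theirs. Neighbouring ranks often could not be separated by counting error. In AG the intervals of CD2BP2, CD244 and CD99 overlapped in turn, as did those from NKG7 through CD58, CD276, CD82 and CD44 to CD84.

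The comparison of AG with Control asks whether the immunophenotype differed after 1,5-AG. Most members differed little. The change was taken as log2((AG FPKM + 1)/(Control FPKM + 1)) in genes that both libraries list and whose mean is 1 FPKM or more, a filter that 19 of the 29 members listed in both passed, and a change of at least 1.5-fold on that scale was called. CD244 alone was called higher and NKG7 alone was called lower, and 17 members were within 1.5-fold. Over all 5528 genes that passed the filter, 3.6% were called higher and 3.33% lower, so 1 of 19 in each direction was near the background. The median log2 ratio was -0.05 over the members and -0.03 over all genes that passed.

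CD244 (ENSG00000122223) had 19.4 FPKM in AG (18.1 to 20.8) and 10.7 in Control (9.76 to 11.7), from 833 fragments in AG and 501 in Control, a ratio of 1.82 (1.62 to 2.03) and a log2 ratio of 0.81. NKG7 (ENSG00000105374) had 10.3 FPKM in AG (8.67 to 12.2) and 17.2 in Control (15.2 to 19.5), from 141 fragments in AG and 258 in Control, a ratio of 0.597 (0.483 to 0.736) and a log2 ratio of -0.69. The intervals of the 2 libraries did not overlap for either gene. Both are antigens of NK cells, and they differed in opposite directions. A further list of T and NK cell genes had 3 of 14 members listed, all below 1 FPKM, and their summed level was 0.575 FPKM in AG and 0.792 in Control. With a pseudocount of 5 FPKM, NKG7 was no longer past 1.5-fold, and at a 2-fold threshold, which 1.18% of all genes passed as higher and 0.886% as lower, neither gene was called.

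The promoter windows of these 2 genes are shown because they were the members called. Both lie on the minus strand, CD244 at chr1:160862838-160863137 and NKG7 at chr19:51372605-51372904 of GRCh38.p14, and capitals mark the same 4 motifs.
CD244: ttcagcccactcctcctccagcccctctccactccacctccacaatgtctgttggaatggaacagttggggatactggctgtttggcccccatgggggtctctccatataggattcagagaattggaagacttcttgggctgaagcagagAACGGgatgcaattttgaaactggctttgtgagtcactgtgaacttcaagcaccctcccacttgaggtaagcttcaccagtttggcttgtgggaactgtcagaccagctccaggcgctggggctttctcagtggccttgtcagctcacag
NKG7: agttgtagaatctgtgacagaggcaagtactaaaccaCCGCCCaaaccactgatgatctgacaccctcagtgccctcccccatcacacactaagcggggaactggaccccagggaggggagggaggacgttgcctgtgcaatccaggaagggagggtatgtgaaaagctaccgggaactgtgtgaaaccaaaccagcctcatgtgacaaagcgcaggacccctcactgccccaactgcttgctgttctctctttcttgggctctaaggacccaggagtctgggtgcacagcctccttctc
The CD244 window held 1 match to AACGG, and the NKG7 window held 1 match to GGGCGG on the strand opposite to the gene. Both windows held 0 matches to GAGGAA.

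**Figure D2:**
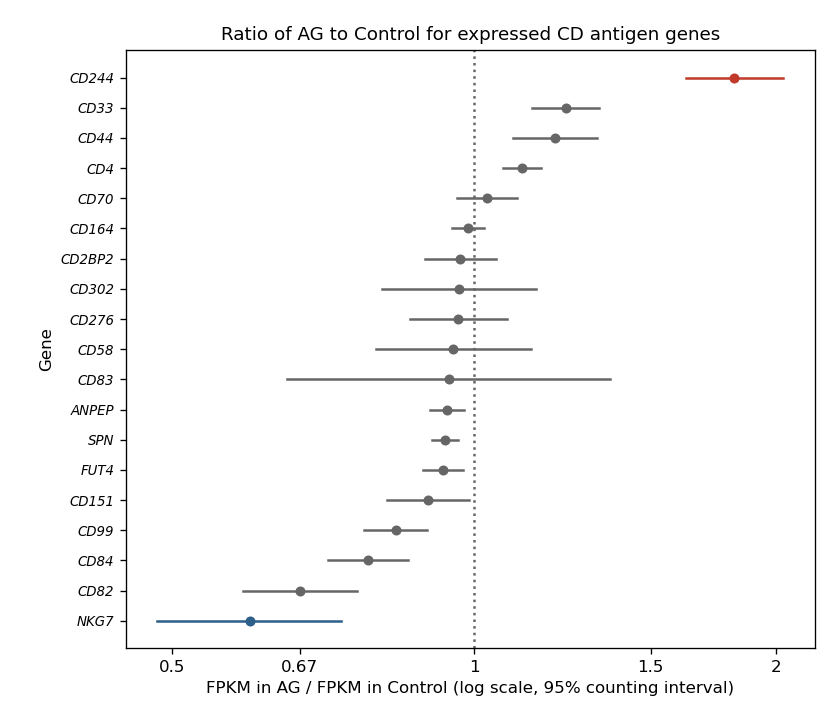
Ratio of FPKM in AG to FPKM in Control, on a log axis, for the 19 members that passed the filter, with 95% counting intervals. CD244 at 1.82 (red) and NKG7 at 0.597 (blue) were the genes past 1.5-fold on the log2(FPKM + 1) scale.

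Differences within 1.5-fold were in part larger than counting error. Counting intervals of the ratio lay above 1 for 4 members, which were CD244, CD33, CD44 and CD4, and below 1 for 8, which were NKG7, CD82, CD84, CD99, CD151, FUT4, SPN and ANPEP. Of the 5023 genes whose fragments were recovered, 16.7% had intervals above 1 and 22.8% below 1. These intervals are of FPKM as deposited, without further scaling. A factor of 1.025 on AG would bring the median ratio of genes that passed the filter to 1. It would take the upper bounds of CD151 (0.989) and ANPEP (0.976) past 1. CD82 lay closest to the threshold among members not called, with a ratio of 0.671 (0.589 to 0.764) and a log2 ratio of -0.51. CD84 had a ratio of 0.784 (0.715 to 0.860) and CD99 one of 0.836 (0.777 to 0.898).

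The 4 myeloid members that passed the filter did not differ in a common direction. CD33 had a ratio of 1.23 (1.14 to 1.33), while FUT4 had 0.931 (0.889 to 0.974) and ANPEP 0.939 (0.903 to 0.976), and CD302 had 0.966 (0.810 to 1.15). Their median log2 ratio was -0.06, and it was 0.10 without FUT4 and CD302, which share exon bases with other genes. The myeloid integrin ITGAM, which is CD11b under another symbol, had 8.30 FPKM in AG and 1.55 in Control. Its ratio was 5.36 (4.47 to 6.46). Also under other symbols, ITGAX had a ratio of 1.57 (1.39 to 1.77) and BST1 1.29 (1.15 to 1.45), while IL3RA had 0.889 (0.741 to 1.07). CD4 had a ratio of 1.12 (1.07 to 1.16). Of the 5 B cell antigens 0 passed the filter.

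Below the filter, levels were low and fragment numbers varied. CD180, with a mean of 0.9997 FPKM, lay just under it and had a ratio of 1.79 (1.30 to 2.47) from 108 fragments in AG and 66 in Control. CD226 had a ratio of 2.55 (1.60 to 4.17) from 63 fragments in AG and 27 in Control, and CD24 one of 4.92 (1.62 to 19.98) from 18 fragments in AG and 4 in Control. The intervals for CD79A, CD160, CD6, CD274, CD101, CD200R1 and CD5L included 1. Members listed in 1 library only, 8 in AG and 3 in Control, were not compared. Listing in both libraries held for 29 of the 40 members, beside 10548 of all 16145 genes. A value in 1 library only was thus common among all genes and is not read as a difference.

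Several members lie near each other in the genome, in GRCh38 coordinates of GENCODE 29, and 5 pairs of neighbouring members were at most 500 kb apart, a distance chosen after the values were seen. In 3 of the 5 both genes had a ratio, and in these 3 the ratios lay on opposite sides of 1. Over all 5528 genes that passed the filter, 2386 ratios were above 1 and 3142 below 1. Opposite sides are thus common in a pair of genes, and no pattern by position is read from 3 pairs. The next closest pair in which both genes had a ratio, SPN and CD2BP2 on chromosome 16, is 680 kb apart. Both of its ratios were below 1. NKG7 (chromosome 19, 51371606 to 51372715, minus strand) lies 128 kb beyond CD33 (51225064 to 51243860, plus strand). CD84 (chromosome 1, 160541095 to 160579516) and CD244 (160830160 to 160862855), both SLAM-family genes on the minus strand, are 251 kb apart. CD58 (chromosome 1, 116514535 to 116571039, minus strand) and CD101 (117001750 to 117036476, plus strand) are 431 kb apart, and the counting intervals of both ratios included 1. CD101 did not pass the filter on the mean.

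Genes of the same lineages that are not in the CD series were read from 4 further lists, of which the myeloid list alone held genes at 1 FPKM or more. Of 14 B lineage genes 6 had a value, all below 1 FPKM, and the highest were VPREB3, a relative of the surrogate light chain of the pre-B cell receptor, at 0.237 in AG only, and the adaptor BLNK at 0.228 in AG and 0.229 in Control. Of 14 T and NK cell genes 3 had a value, led by TRAC, the constant region of the T cell receptor alpha chain, at 0.344 FPKM in AG and 0.504 in Control, and the adaptor LAT at 0.152 in AG and 0.208 in Control. Of 14 myeloid genes 6 had a value, and all 6 in AG and all 5 listed in Control were at 1 FPKM or more. Their median was 72.7 FPKM in AG and 66.3 in Control. Of the 5 that passed the filter, 1 was called higher and 2 lower, beside 3.6% higher and 3.33% lower among all genes that passed it. The calcium-binding protein S100A9 was called higher, at 131 FPKM in AG and 66.3 in Control. The granule proteins CTSG, at 194 FPKM in AG and 743 in Control, and MPO, at 1.70 in AG and 4.75 in Control, were called lower. Of 12 erythroid and platelet genes 2 had a value, with 0.230 FPKM for GP9, a platelet glycoprotein, in AG and 0.421 in Control, and 0.0472 for HBB in Control only.

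Antigens that have a CD number but another gene symbol were read in the same way. Of 36 such genes 12 had a value, and 7 were at 1 FPKM or more in both libraries. SELPLG, the selectin ligand CD162, had 19.1 FPKM in AG and 18.6 in Control, and BST1, the ectoenzyme CD157 of myeloid and stromal cells, had 14.7 in AG and 11.4 in Control. IL3RA, the interleukin receptor CD123, had 8.74 in AG and 9.83 in Control. IL7R, the interleukin receptor CD127 of lymphoid precursors and T cells, had 1.07 FPKM in AG (0.869 to 1.31) and 1.47 in Control (1.24 to 1.73), from 96 fragments in AG and 144 in Control. Of the 7, ITGAM and ITGAL were called higher and 0 were called lower, beside 3.6% higher and 3.33% lower among all genes that passed the filter. ITGAL, the integrin CD11a, had 16.2 FPKM in AG and 8.18 in Control. ITGAX, the integrin CD11c, had 6.17 in AG and 3.94 in Control and was within 1.5-fold on the log2(FPKM + 1) scale.

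**Figure D3:**
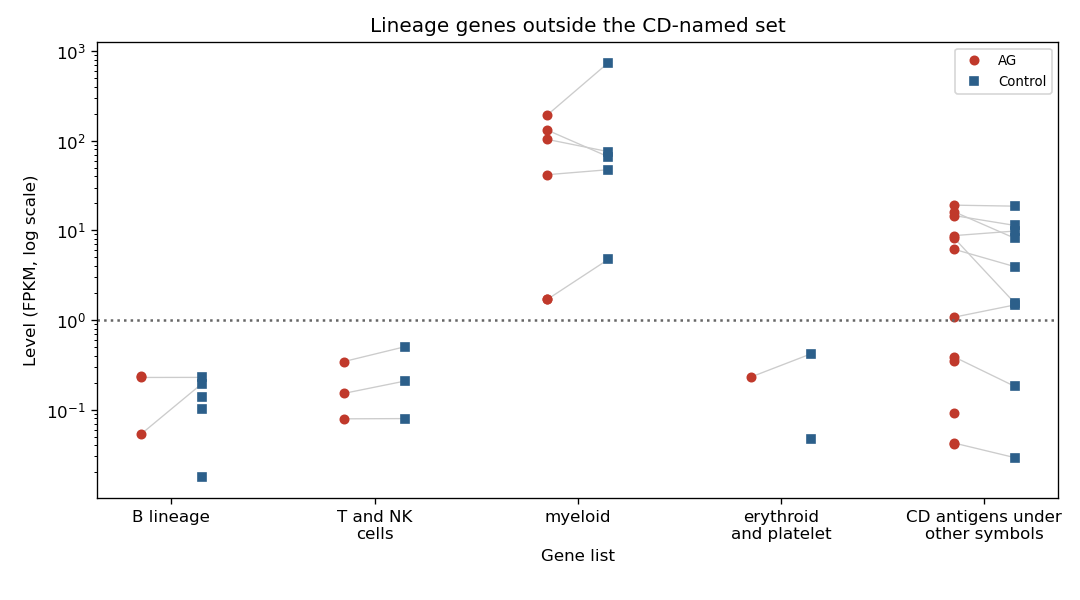
FPKM on a log axis of the listed genes of 5 further lists in AG (circles, left) and Control (squares, right), with grey lines joining a gene listed in both and a dotted line at 1 FPKM. The B lineage, T and NK cell and erythroid lists lie below 1 FPKM, and the listed myeloid genes lie above it.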

How the data were processed

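Gene expression was measured by RNA-seq in 1 AG and 1 Control library. The deposited values are FPKM per Ensembl ID, made by the authors, and the submitters' processing notes name the build hg38 and, without versions, HISAT2, HTSeq, Cufflinks and Trimmomatic. Per the labels, libraries were prepared with a stranded mRNA kit. No source used here gives the annotation release, the counting strand or filters, so reads of overlapping genes cannot be told apart.

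IDs were matched to GENCODE 29 (97.5% of those in AG and 97.4% in Control). In genes with a single transcript, FPKM times exon length was whole within 0.01 in 88.1% of 5259 genes in AG and 88.4% of 5315 in Control, which gave the library totals. For other genes the whole fragment numbers were sought at exon lengths within 15% of the annotated one. Ratios have Clopper-Pearson and levels have exact Poisson intervals at 95%. Fragments without molecular identifiers are not independent molecules.

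The change was log2 of FPKM with a pseudocount of 1, which understates changes of low genes, for genes whose mean was 1 FPKM or more, called at 1.5-fold. No count model was fitted, and no test was possible with 1 library per group. The steps were checked on simulated counts. Members, groups and supporting lists were chosen with earlier results of these data known. One gene that fits the naming rule is not reported here and enters no count. Any member could be named, and in the supporting lists the 2 highest genes and those past 1.5-fold. In the list of antigens under other symbols further genes were named after their values were seen. Alternatives were other pseudocounts, filters, thresholds and scalings. Leaving out members that share at least 10% of their exon bases with another gene was chosen after seeing the data. Python 3.11.15, numpy 2.4.6, pandas 2.3.3, scipy 1.17.1 and matplotlib 3.10.9 were used.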

Additional observations from a re-analysis of the deposited data

How the results depend on the processing

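CD244 was past 1.5-fold with pseudocounts of 0.1 and 5 FPKM and under both scalings. NKG7 was past it under the same settings except a pseudocount of 5 FPKM, where 0 members were lower and its log2 ratio was -0.54. Removing the filter or raising it to a mean of 5 FPKM cannot alter the ratio of either gene. Neither can leaving out the 5 members that share exon bases with another gene. At a 2-fold threshold 0 members were higher and 0 lower. The median over all members ran from -0.07 to -0.02. At 0.5 FPKM, 1 B cell antigen in Control passed, beside 54.5% of all listed genes, and at 5 FPKM 0 passed in AG, beside 24.1%. Rescaling each library to TPM over its listed genes, which by construction lowers the threshold about 8.19 times in AG and 8.27 times in Control, let 3 B cell, 6 T and NK cell and 7 myeloid antigens pass in AG, and 2 B cell and 6 T and NK cell antigens in Control, beside 80.1% of all listed genes in AG and 79.2% in Control. Without members sharing exon bases, 2 myeloid antigens passed in AG and 2 in Control, ANPEP and CD33, because FUT4 and CD302 were left out, and the myeloid median log2 ratio was 0.10 instead of -0.06. CD164 had a log2 ratio of -0.02, and of 0.02 after scaling by the median of ratios. No paired analysis was possible because each group has 1 library, and for the same reason no library could be left out. Below about 1 FPKM many levels rest on few fragments.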
